A study of Homo sapiens with 12 samples.

Results

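The unfolded protein response and the stress programme run by the transcription factor ATF4 were followed through 34 genes in 2 bladder cancer cell lines. The genes were taken by name from the deposited count table of 43557 genes, as listed members of these pathways, with no threshold on their values. All 34 stood in the table and all 34 passed the filter on low counts, with at least 33 counts in every library. They comprise 11 chaperones and related luminal proteins of the endoplasmic reticulum (ER), 4 disulfide isomerases, 5 components of ER-associated degradation, 3 stress sensors with XBP1, 5 transcription factors of the ATF4 arm and 5 of its effectors. Messenger RNA was sequenced in 12 libraries. RT4 is a well-differentiated papillary bladder tumour line and T24 an invasive bladder carcinoma line. In each line 3 libraries carry the name shFTO and the treatment FTO knockdown, and 3 carry the name shNC and no treatment. FTO encodes an RNA demethylase, and the labels give no other allele or agent, and none shared by all groups. The sources used here do not give the knockdown vector, the hairpin sequence or the time after knockdown. They do not say either whether the 3 libraries of a group were grown apart, and the p-values then reflect only library-to-library spread, which may be technical.

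The unfolded protein response is the cell's answer to unfolded protein in the ER. It starts from 3 membrane sensors. ATF6 is cleaved to a transcription factor, ERN1 (IRE1) splices XBP1 mRNA into the form that encodes an active factor, and EIF2AK3 (PERK) slows translation while ATF4 is translated more. ATF6 and spliced XBP1 are best known for raising chaperones and degradation components, whereas ATF4 raises DDIT3 (CHOP), amino acid genes and feedback inhibitors, and also answers other kinases that act on the same initiation factor. Secretory cells such as hepatocytes and matrix-producing fibroblasts carry much of this folding machinery. Sequencing counts measure the mRNA of these genes, and XBP1 splicing, ATF6 cleavage and ATF4 protein were not measured.

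Promoter sequences show which of these genes hold exact matches to the classical response elements near a listed start. RefSeq promoters (GRCh38.p14, 250 bases before to 50 bases after the start) were matched for 33 of the 34 genes, all but PDIA3, and searched on both strands. The ER stress response element (ERSE: CCAAT, 9 bases, CCACG) was present in HSPA5, HSP90B1, CALR, CANX, CRELD2 and XBP1, which is 18.2% of the 33, against 22 of 27305 promoters or 0.0806%. The second form (ERSE-II: ATTGG, 1 base, CCACG) was present in HYOU1, SDF2L1 and HERPUD1, 9.09% against 0.0549%. ERSE is classically described in HSPA5, HSP90B1 and CALR, and ERSE-II in HERPUD1. The 34 were listed as known members of these pathways, so the higher shares follow in part from that choice. They are a description and no test. The element bound by spliced XBP1 (UPRE: TGACGTG) stood in HYOU1 alone, where it overlaps an ERSE-II, and in 2% of all promoters. The composite site of C/EBP and ATF factors (CARE: TGATG, 1 base, AA) stood in HERPUD1, ATF3 and CHAC1, 9.09% against 3.67%. The stretches below hold those matches, shown for 6 ERSE or ERSE-II genes and 2 CARE genes that the results return to, with the matched letters in capitals and all written 5′ to 3′ on the gene's strand.
HSPA5 (chr9:125241386-125241414, minus strand): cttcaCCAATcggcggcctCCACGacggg
CALR (chr19:12938379-12938407, plus strand): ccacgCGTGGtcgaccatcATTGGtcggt
CANX (chr5:179698773-179698801, plus strand): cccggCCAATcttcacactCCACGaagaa
CRELD2 (chr22:49918549-49918577, plus strand): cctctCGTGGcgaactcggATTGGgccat
XBP1 (chr22:28800598-28800626, minus strand): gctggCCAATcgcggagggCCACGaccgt
SDF2L1 (chr22:21642109-21642129, plus strand): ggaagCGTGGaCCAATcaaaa
ATF3 (chr1:212565211-212565228, plus strand): caggaTGATGGAAggctg
CHAC1 (chr15:40953257-40953274, plus strand): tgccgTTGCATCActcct
CALR, CRELD2, SDF2L1 and CHAC1 carry their element in the reverse orientation. A match is a description of the letters and shows no binding. A missing match does not show that an element is absent. Only exact letters were searched, in the window of a single listed start per gene. The CANX window lies downstream of the annotated gene start (chr5:179678656).

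Library totals ran from 31291047 to 102798895 counts, with RT4 shNC replicates 2 and 3 the deepest. FTO was at 35.4, 36.3 and 33.9 CPM (counts scaled to library size with TMM factors) in T24 shNC and 25.9, 26.3 and 24.2 in T24 shFTO, a log2 change of -0.46 ± 0.049 (SE, adjusted p = 1.93e-07). In RT4 it was at 45.03, 46.9 and 46.6 CPM in shNC and 70.2, 71.3 and 65.2 in shFTO, a log2 change of 0.58 ± 0.045 (adjusted p = 4.19e-09). FTO was thus lower under the shFTO label in T24 and higher in RT4, with no overlap in either line. The exact two-sided permutation p was 0.1 in each, the smallest that 3 against 3 allows. Every direction below is therefore between libraries as labelled. Libraries of 1 group correlated at r = 0.996 to 0.998 in log2 CPM over 16205 genes, while the mean r between groups was 0.698 to 0.781. The groups did not pair by line: T24 shNC was closest to RT4 shFTO (0.781), and shNC and shFTO correlated at 0.706 within T24 and 0.761 within RT4. With FTO in RT4 and the markers given next, this goes against the labels, and FTO and a difference in cell identity between the 2 labels of a line cannot be told apart. Mitochondrial genes took 7.0% to 8.1% of counts in the shFTO libraries and 4.7% to 5.7% in the shNC libraries. Cell type markers also separated the 4 groups. Of 18 urothelial markers, 5 reached 10 CPM in T24 shNC, 5 in T24 shFTO, 0 in RT4 shNC and 4 in RT4 shFTO, and UPK3A and KRT20 were at 0 in 3 of the 4 groups each. These markers were thus low in RT4 shNC, where their sum was 29.03 to 32.6 CPM. The count there depends on the 10 CPM cut, as TBX3 (mean 9.24 CPM), GATA3 (9.06) and KRT7 (7.47) lay just under it. GATA3 was higher there than in T24 shNC (0.175 CPM), whereas KRT7 and TBX3 were lower. Of 23 hepatocyte markers, 20 reached 10 CPM in T24 shFTO and 2 in T24 shNC. Of 15 fibroblast markers, 10 reached 10 CPM in RT4 shFTO and 1 in RT4 shNC. Neuronal markers summed to 607 to 651 CPM in RT4 shNC and to at most 181 CPM elsewhere. UCHL1, at a mean of 490 CPM, made up most of the RT4 shNC sum. SNAP25 and SYT1 were also highest there, but ELAVL4 and GAP43 had no count, and TUBB3 was higher in RT4 shFTO (154 against 87.7 CPM). Leukocyte and endothelial markers summed to at most 67.1 CPM and erythroid markers to at most 0.854 CPM in any library.

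Most of the 34 genes differed between the labels in both lines, as did most genes of the transcriptome. In T24, 18 rose and 13 fell (edgeR's quasi-likelihood test, Benjamini-Hochberg adjusted over 23070 genes, called under 0.05), against a background of 78.0% of all tested genes called, 37.2% higher and 40.8% lower. The 3 not called were CALR, ATF4 and VLDLR. In RT4, 20 rose and 12 fell, against 78.6% of all tested genes called, 38.6% higher and 40.0% lower, and ATF6 and CEBPB were not called. Groups did not overlap for 31 of the 34 genes in T24 and 32 in RT4, where 79.6% and 79.9% of all genes did not. Changes were not large for these libraries: the median absolute log2 change was 0.66 in T24 and 0.90 in RT4, where all genes had 1.06 and 1.04. Changes of at least 2-fold were called for 10 genes in T24 and 14 in RT4, against 48.7% and 48.0% of all genes. The 34 had at least 33 counts in every library, whereas some tested genes had no count in a group. The sets were not matched for level. The signed median was 0.17 in T24 and 0.51 in RT4, against -0.05 and 0.00 over all genes. In each line the called genes were the same ones whose groups did not overlap. Their equal direction in all 3 pairs of libraries that share a batch number follows from that and adds no evidence.

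**Figure D1:**
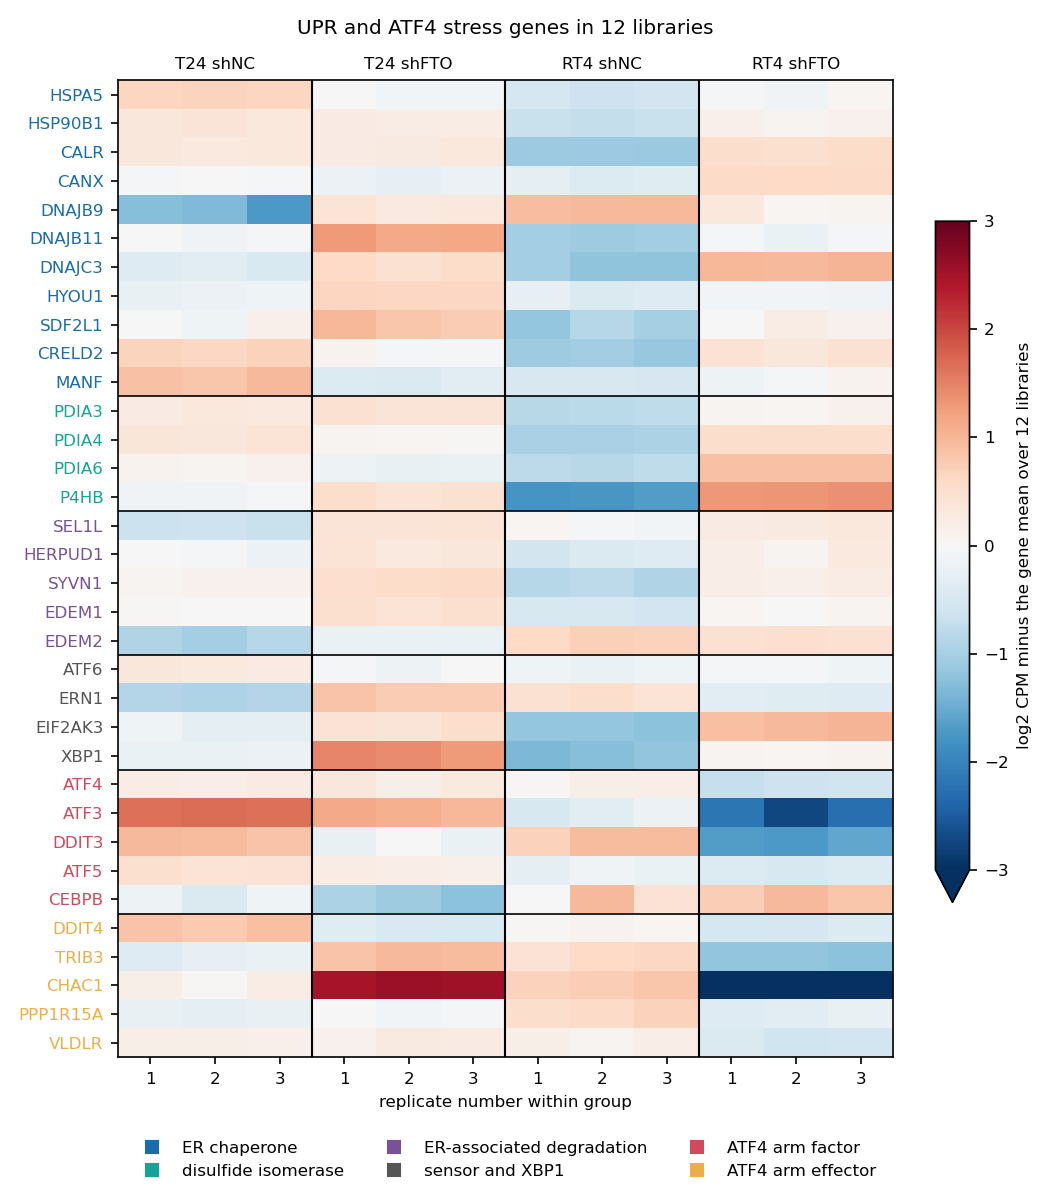
Heat map of the 34 genes (rows, grouped by role) in the 12 libraries (columns, grouped by line and label). Colour gives log2 CPM centred on each gene's mean over the 12 libraries, with the scale ending at 3 on either side. The 3 libraries of a group look alike, RT4 shNC is lowest for most folding genes, and RT4 shFTO is lowest for 9 of the 10 ATF4 arm genes, all but CEBPB.

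ER chaperones split in T24 and rose almost as a whole in RT4. Of the 11, 5 rose, 5 fell and CALR was not called in T24, with a median log2 change of -0.03. In RT4, 10 rose and DNAJB9 fell, with a median of 0.93. HSPA5 (BiP), the abundant Hsp70 that holds the sensors inactive, was at 1284, 1311 and 1292 CPM in T24 shNC and 819, 774 and 778 CPM in T24 shFTO. It was at 567, 533 and 547 CPM in RT4 shNC and 801, 767 and 853 CPM in RT4 shFTO. HSPA5 thus fell in T24 (log2 change -0.71 ± 0.038, adjusted p = 2.53e-11) and rose in RT4 (0.56 ± 0.038, adjusted p = 7.41e-10), without overlap in either. CALR (calreticulin), a lectin that folds glycoproteins, was at 971, 945 and 955 CPM in T24 shNC and 916, 928 and 959 in T24 shFTO, where the groups overlapped. Its log2 change of -0.03 in T24 was -0.14 with a call under upper-quartile scaling and -0.21 with a call when library totals were the only scaling. In RT4 it stood at 360.4, 361 and 354 CPM in shNC and 1106, 1076 and 1135 CPM in shFTO, 3.08-fold higher, with every shFTO library above every shNC library.

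MANF and CRELD2, small stress-induced proteins of the ER lumen, fell in T24 and rose in RT4. MANF, a secreted ER protein that binds BiP, was at 64.4, 62.4 and 67.9 CPM in T24 shNC and 26.4, 25.9 and 27.8 CPM in T24 shFTO. In RT4 it was at 25.1, 25.05 and 24.5 CPM in shNC and 31.6, 34.2 and 37.6 CPM in shFTO. MANF fell in T24 (log2 change -1.28 ± 0.057, within error of the fall of DDIT4) and had a rise in RT4 (0.47 ± 0.057). CRELD2, a stress-induced ER protein with isomerase activity, was at 45.7, 44.5 and 46.6 CPM in T24 shNC and 30.9, 28.2 and 28.2 CPM in T24 shFTO. It was at 13.7, 14.1 and 13.2 CPM in RT4 shNC and 38.9, 36.5 and 39.4 CPM in RT4 shFTO. CRELD2 therefore fell by 0.65 on the log2 scale in T24 and rose 2.80-fold in RT4, with no overlap.

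The J-domain partners of BiP did not move as one. DNAJB9 (ERdj4), which targets misfolded proteins and restrains ERN1, was at 5.98, 5.83 and 4.39 CPM in T24 shNC and 19.4, 17.8 and 18.3 CPM in T24 shFTO. In RT4 it was at 27.6, 28.4 and 28.5 CPM in shNC and 18.1, 15.2 and 15.5 CPM in shFTO. DNAJB9 rose 3.46-fold in T24 and, alone among the 11, fell in RT4 (log2 change -0.79 ± 0.091, adjusted p = 6.01e-07). Exons of THAP5 and PNPLA8 on the other strand cover 6.45% and 3.49% of its exon bases, and both had more counts (15818 and 22272) than DNAJB9 (11610). DNAJB11 (ERdj3), which passes clients to BiP, was at 107, 99.7 and 106 CPM in T24 shNC and 262, 236 and 241 CPM in T24 shFTO, and at 53.4, 51.7 and 52.5 CPM in RT4 shNC and 104, 94.4 and 105 CPM in RT4 shFTO. DNAJC3 (p58IPK), an inhibitor of EIF2AK3 and a co-chaperone, was at 37.4, 39.8 and 36.1 CPM in T24 shNC, 74.2, 67.6 and 72.02 CPM in T24 shFTO, 24.1, 21.2 and 21.4 CPM in RT4 shNC and 97.9, 96.6 and 99.7 CPM in RT4 shFTO. DNAJB11 and DNAJC3 rose in both lines, by 2.36-fold and 1.89-fold in T24 and by 1.93-fold and 4.43-fold in RT4, with every shFTO library above every shNC library of its line. HSP90B1 (GRP94) and CANX, the membrane-bound partner of CALR, had falls of 0.12 and 0.16 on the log2 scale in T24 (HSP90B1 not called without the low-count filter, at -0.08) and rises of 0.80 and 0.93 in RT4. HYOU1, the nucleotide exchange factor of BiP, and SDF2L1, a partner of DNAJB11, rose in both lines (log2 changes 0.80 and 0.85 in T24, 0.27 and 1.11 in RT4). The HYOU1 rise in RT4 was lost when library totals were the only scaling (-0.0012, not called). DNAJB9 was the least abundant chaperone per kilobase of exon in T24 shNC, at 1.90 CPM per kilobase, where CALR had 353.

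Disulfide isomerases, which form and reshuffle disulfide bonds, all rose in RT4. P4HB (PDI), which is also the beta subunit of the collagen prolyl hydroxylase, was at 264, 268 and 282 CPM in RT4 shNC and 2210.0, 2269.7 and 2327 CPM in RT4 shFTO. Its rise of 8.36-fold (log2 change 3.06 ± 0.039, adjusted p = 1.94e-19) was the greatest of the 34 genes in either line. In T24 it was at 842, 839 and 882 CPM in shNC and 1296, 1203 and 1242 CPM in shFTO, a log2 change of 0.55 ± 0.036. PDIA6 was at 217, 207 and 217 CPM in RT4 shNC and 682, 685 and 685 CPM in RT4 shFTO, and at 396, 395 and 402 CPM in T24 shNC and 334, 318 and 321 CPM in T24 shFTO. It rose 3.20-fold in RT4 and fell in T24 (log2 change -0.29 ± 0.030), and no library of one label overlapped the other. PDIA4 behaved likewise, with log2 changes of -0.31 in T24 and 1.49 in RT4. PDIA3 (ERp57), the isomerase that works with CALR and CANX, rose in RT4 (log2 change 0.88) and slightly in T24 (0.13, but 0.02 under upper-quartile scaling and -0.05 when library totals were the only scaling, neither called). Exons of ATP6V1C2 on the other strand cover 25.2% of PDIA6 exon bases, and the sources used here do not say whether counting used strand, but ATP6V1C2 had 1222 counts over all libraries against 213741 for PDIA6. Likewise, ELL3 covers 14.8% of PDIA3 exon bases and an antisense gene 9.98% of those of P4HB. Counts of the processed copy PDIA3P1 were 1.81% of those of PDIA3.

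Summed over the 15 chaperones and isomerases, RT4 shFTO stood at 8743 to 8994 CPM and RT4 shNC at 3443 to 3587 CPM. The sums in T24 overlapped, at 7108 to 7182 CPM in shNC and 6893 to 7166 CPM in shFTO, although 14 of the 15 genes were called there. Fibroblast markers moved with this rise, as their sum was 80.5 to 80.9 CPM in RT4 shNC and 10894 to 11261 CPM in RT4 shFTO, with LUM and PDGFRA at 0 in RT4 shNC. Of the 15, 11 rose, TWIST1, PRRX1 and DCN fell, and FBN1, the main one in RT4 shNC, was not called. In T24, hepatocyte markers summed to 2986 to 3056 CPM in shNC and to 32119 to 33372 CPM in shFTO, with APOA1, APOH, TTR, HP and ASGR2 at 0 in shNC. Of the 23, 22 rose, and CPS1, which made up most of the shNC sum at 2878 CPM on average, fell to 7.65 CPM. Also in T24, the fibroblast markers summed to 1526 to 1577 CPM in shNC and 52.9 to 57.3 CPM in shFTO, and the urothelial markers to 2635 to 2807 CPM and 293 to 303 CPM. COL5A1 and FBN1 (means 879 and 500 CPM) made up most of the fibroblast sum in T24 shNC. KRT17 and KRT7 (1264 and 1208 CPM) made up most of the urothelial sum there. Neither list fell as a whole in T24: 5 fibroblast markers rose and 7 fell, and 5 urothelial markers rose and 9 fell. The part of all these marker changes in the changes of the 34 genes was not tested. In such bulk libraries, fewer cells of a type and less RNA per cell cannot be told apart.

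Components of ER-associated degradation rose together in T24 and nearly so in RT4, by smaller factors. All 5 rose in T24, with a median log2 change of 0.46, and 4 rose in RT4, with a median of 0.57. SEL1L, the scaffold of the retrotranslocation complex, had log2 changes of 1.03 ± 0.035 in T24 and 0.30 ± 0.035 in RT4, the latter 0.03 without a call when library totals were the only scaling. SYVN1 (HRD1), its ubiquitin ligase, had 0.44 and 1.04, and shares 7.24% of its exon bases on the same strand with the highly counted FAU. HERPUD1, which links the ligase to its partners, had 0.41 and 0.65, and EDEM1, which trims mannose on doomed glycoproteins, 0.46 and 0.57. EDEM2, which starts that trimming, was at 17.6, 16.5 and 18.2 CPM in T24 shNC and 28.8, 29.01 and 28.8 CPM in T24 shFTO, and at 50.4, 54.6 and 53.4 CPM in RT4 shNC and 45.5, 45.9 and 45.2 CPM in RT4 shFTO. It was the exception, rising 1.65-fold in T24 and falling in RT4 (log2 change -0.22 ± 0.044, adjusted p = 0.000297).

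The sensors took separate courses. ERN1 was at 12.8, 12.5 and 12.8 CPM in T24 shNC and 43.2, 40.1 and 40.04 CPM in T24 shFTO, and at 32.4, 33.99 and 31.5 CPM in RT4 shNC and 18.97, 18.4 and 18.2 CPM in RT4 shFTO. EIF2AK3 was at 26.7, 23.8 and 24.4 CPM in T24 shNC and 39.6, 37.98 and 42.2 CPM in T24 shFTO, and at 13.1, 13.1 and 12.4 CPM in RT4 shNC and 54.7, 57.3 and 58.9 CPM in RT4 shFTO. ERN1 thus rose 3.23-fold in T24 and fell in RT4 (log2 change -0.82 ± 0.051), while EIF2AK3 rose in both, 1.60-fold in T24 and 4.44-fold in RT4. An antisense gene covers 14.4% of EIF2AK3 exon bases. ATF6 fell in T24 (log2 change -0.37 ± 0.042) and was not called in RT4 (0.08, adjusted p = 0.0922), where it was 0.11 with a call under RLE scaling and -0.19 with a call when library totals were the only scaling. XBP1, the target of ERN1, was at 95.5, 96.3 and 96.6 CPM in T24 shNC and 303, 292 and 268 CPM in T24 shFTO. In RT4 it was at 43.2, 45.4 and 48.1 CPM in shNC and 116, 115 and 118 CPM in shFTO. XBP1 mRNA rose 2.99-fold in T24 and 2.54-fold in RT4, with log2 changes of 1.58 ± 0.046 and 1.35 ± 0.046 and no overlap in either line.

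None of the 5 transcription factors of the ATF4 arm was called higher in either line, though CEBPB in RT4 was in 2 alternative fits given with it. ATF4 itself was at 358, 351 and 364 CPM in T24 shNC and 387, 349 and 378 CPM in T24 shFTO. In RT4 it was at 312, 344 and 354 CPM in shNC and 191, 200.1 and 204 CPM in shFTO. The T24 groups overlapped (log2 change 0.05 ± 0.047, adjusted p = 0.308, and -0.13 with a call when library totals were the only scaling), and ATF4 mRNA fell in RT4 (log2 change -0.76 ± 0.048, adjusted p = 2.03e-10). DDIT3 (CHOP), the pro-apoptotic factor that ATF4 raises, was at 35.5, 35.2 and 33.1 CPM in T24 shNC and 15.5, 18.1 and 15.9 CPM in T24 shFTO. It was at 29.4, 35.4 and 35.2 CPM in RT4 shNC and 5.68, 5.51 and 6.17 CPM in RT4 shFTO. DDIT3 was 2.10-fold lower in T24 shFTO and 5.77-fold lower in RT4 shFTO, with the groups apart in both. Exons of the methionyl-tRNA synthetase gene MARS on the other strand cover 27.2% of DDIT3 exon bases. Those of MBD6, also on the other strand, cover 4.44%, with 37602 counts for MBD6 against 14971 for DDIT3.

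ATF3, a stress-induced repressor, was at 25.6, 25.9 and 25.6 CPM in T24 shNC and 17.8, 16.9 and 16.2 CPM in T24 shFTO, and at 5.81, 6.47 and 7.20 CPM in RT4 shNC and 1.80, 1.22 and 1.70 CPM in RT4 shFTO. It fell in both lines, with log2 changes of -0.60 ± 0.096 in T24 and -2.05 ± 0.12 in RT4 and no overlap. CEBPB, a partner of ATF4 and CHOP, was at 21.1, 17.2 and 21.3 CPM in T24 shNC and 12.2, 11.1 and 9.93 CPM in T24 shFTO. It was at 23.6, 45.9 and 31.5 CPM in RT4 shNC and 39.2, 46.1 and 41.8 CPM in RT4 shFTO. It fell in T24 (log2 change -0.84 ± 0.24, adjusted p = 0.00962). In RT4 the groups overlapped through the high second shNC library, and the log2 change of 0.32 ± 0.21 was not called (adjusted p = 0.198). Without RT4 shNC replicate 2 the log2 change was 0.60 (adjusted p = 0.000813), and a fit blocked on batch gave 0.37 (adjusted p = 0.029). ATF5, a further ATF4-type factor, had small falls of 0.26 and 0.24 on the log2 scale. NUP62 exons on the other strand cover 21.2% of its exon bases, with 64740 counts for NUP62 against 11001 for ATF5. The part of NUP62 reads in the ATF5 falls was not tested. CEBPB-AS1 covers 11.8% of the exon bases of CEBPB, with 544 counts against 17296.

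The effectors held the widest opposite changes. CHAC1, which degrades glutathione, was at 11.8, 10.7 and 12.2 CPM in T24 shNC and 58.1, 61.8 and 60.3 CPM in T24 shFTO. In RT4 it was at 16.8, 17.5 and 18.6 CPM in shNC and 0.992, 0.933 and 0.967 CPM in shFTO. CHAC1 rose 5.18-fold in T24 (log2 change 2.37 ± 0.063, adjusted p = 1.91e-15) and was 18.3-fold lower in RT4 shFTO (-4.19 ± 0.090, adjusted p = 1.41e-16). TRIB3, a pseudokinase that feeds back on ATF4 and CHOP, was at 92.3, 101 and 104 CPM in T24 shNC and 218, 238 and 234 CPM in T24 shFTO. It was at 164, 182 and 186 CPM in RT4 shNC and 53.2, 52.7 and 51.1 CPM in RT4 shFTO. TRIB3 rose 2.32-fold in T24 and was 3.39-fold lower in RT4 shFTO, the same pair of directions as CHAC1 and again without overlap.

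PPP1R15A (GADD34), which helps restart translation, was at 38.3, 36.6 and 38.5 CPM in T24 shNC and 45.3, 42.4 and 42.7 CPM in T24 shFTO, and at 64.2, 66.7 and 72.3 CPM in RT4 shNC and 33.9, 35.3 and 38.2 CPM in RT4 shFTO. Its rise in T24 was small (log2 change 0.20 ± 0.054) and not called under upper-quartile scaling (0.09) or library totals alone (0.02), whereas it fell in RT4 (-0.92 ± 0.053). DDIT4 (REDD1), an inhibitor of the growth kinase complex mTORC1, was at 382, 362 and 395 CPM in T24 shNC and 164, 154 and 153 CPM in T24 shFTO, and at 217, 227 and 221 CPM in RT4 shNC and 145, 148 and 159 CPM in RT4 shFTO. DDIT4 fell in both lines without overlap, by 1.27 and 0.55 on the log2 scale, and exons of DDIT4-AS1 on the other strand cover 41.2% of its exon bases. VLDLR, a lipoprotein receptor, was not called in T24 (log2 change 0.04, adjusted p = 0.585) and fell in RT4 (-0.68 ± 0.072). In RT4 all 5 effectors fell, in T24 3 rose, DDIT4 fell and VLDLR was not called. The 5 factors summed to 386 to 449 CPM in RT4 shNC and 251 to 267 CPM in RT4 shFTO, and the 5 effectors to 478 to 515 CPM and 244 to 259 CPM. In T24 the factor sums were 453 to 469 CPM in shNC and 416 to 454 CPM in shFTO, which overlapped. The effector sums there were 526 to 566 CPM in shNC and 501 to 513 CPM in shFTO, lower without overlap, and DDIT4, which fell, had the highest CPM of the 5 in T24 shNC.

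**Figure D2:**
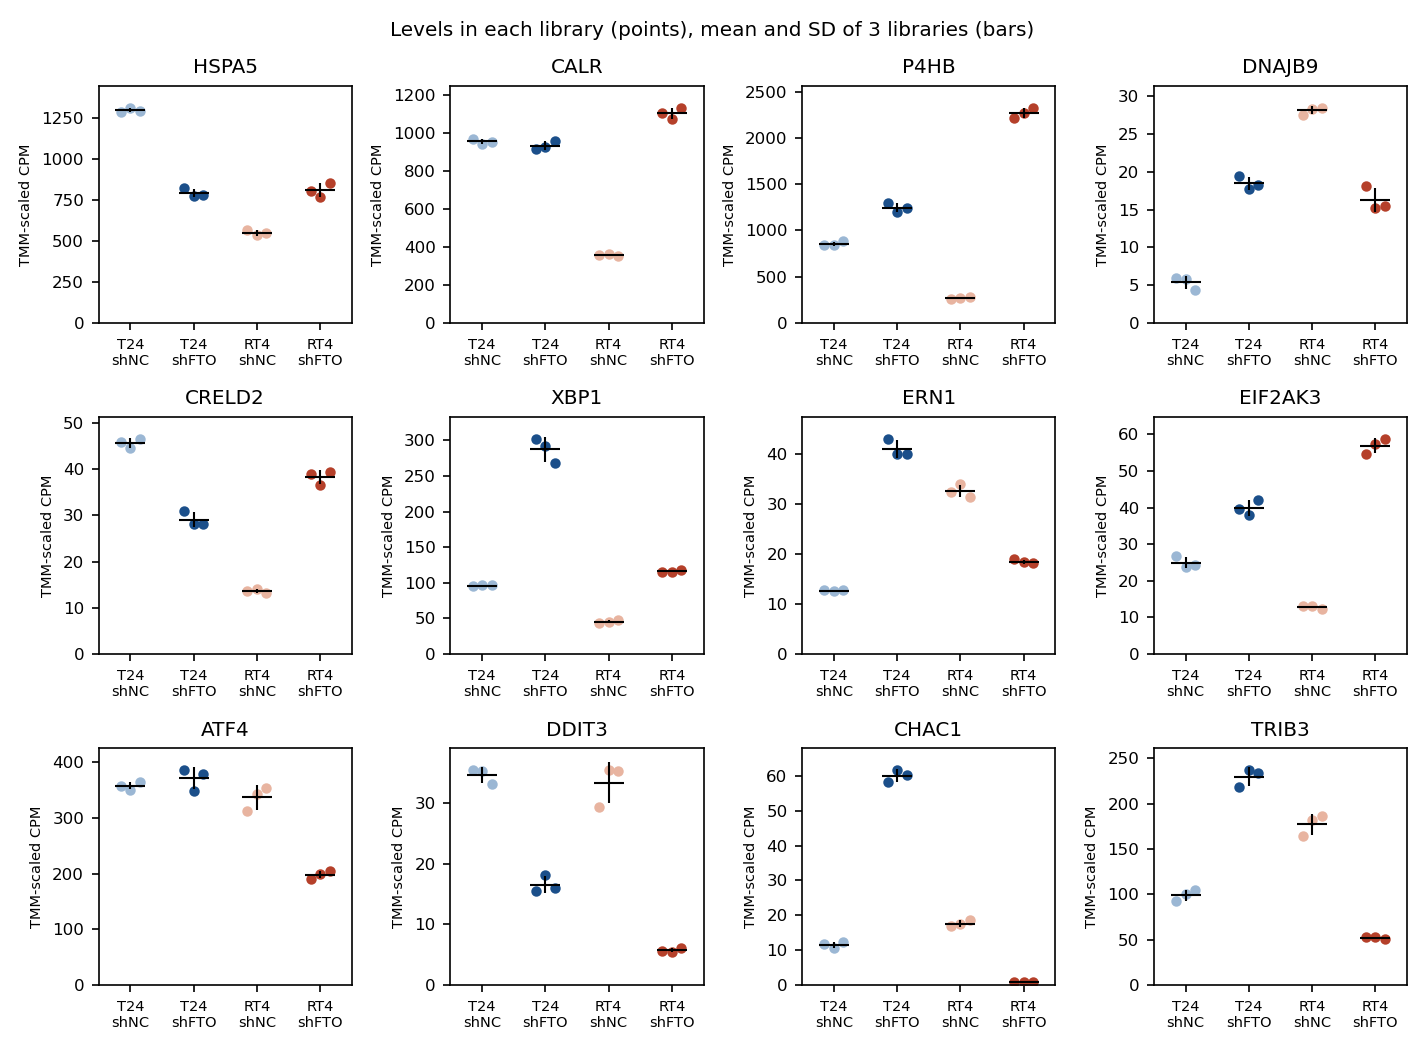
Level of 12 of the genes in TMM-scaled CPM (vertical axes, one scale per panel) in the 3 libraries of each group. Points are libraries, and lines with bars give the mean and SD. CHAC1 is highest in T24 shFTO and near 1 CPM in RT4 shFTO, and P4HB, CALR and EIF2AK3 are lowest in RT4 shNC and highest in RT4 shFTO.

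The change under the shFTO label differed between the lines for 31 of the 34 genes by the interaction term of the edgeR fit, with 14 differences positive (T24 change above RT4 change) and 17 negative. The background was 75.0% of all genes called, 36.3% positive and 38.7% negative, and 18 of the 34 differed by at least 2-fold against 55.3% of all genes. SDF2L1, EDEM1 and ATF5 were not called. The extreme positive differences were CHAC1 (6.57 ± 0.11), TRIB3 (2.97 ± 0.076) and DNAJB9 (2.58 ± 0.14) on the log2 scale. The extreme negative differences were P4HB (-2.52 ± 0.051), CRELD2 (-2.13 ± 0.074) and PDIA6 (-1.97 ± 0.043). By role, all 4 isomerases and 7 of 11 chaperones were negative, while 3 of 5 ATF4 arm factors and 4 of 5 effectors were positive. Opposite calls in the 2 lines were made for 13 genes, among which the T24 calls of HSP90B1 and PPP1R15A depended on the filter or the scaling as given above. HSPA5, HSP90B1, CANX, CRELD2, MANF, PDIA4 and PDIA6 fell in T24 and rose in RT4, and DNAJB9, EDEM2, ERN1, TRIB3, CHAC1 and PPP1R15A rose in T24 and fell in RT4. Both lines rose for 12 genes and fell for 4, which were ATF3, DDIT3, ATF5 and DDIT4. The share of all tested genes with opposite or equal calls in the 2 lines was not computed. The call rates of 78.0% in T24 and 78.6% in RT4 do not give that share. Whether these counts are particular to the 34 therefore cannot be said.

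**Figure D3:**
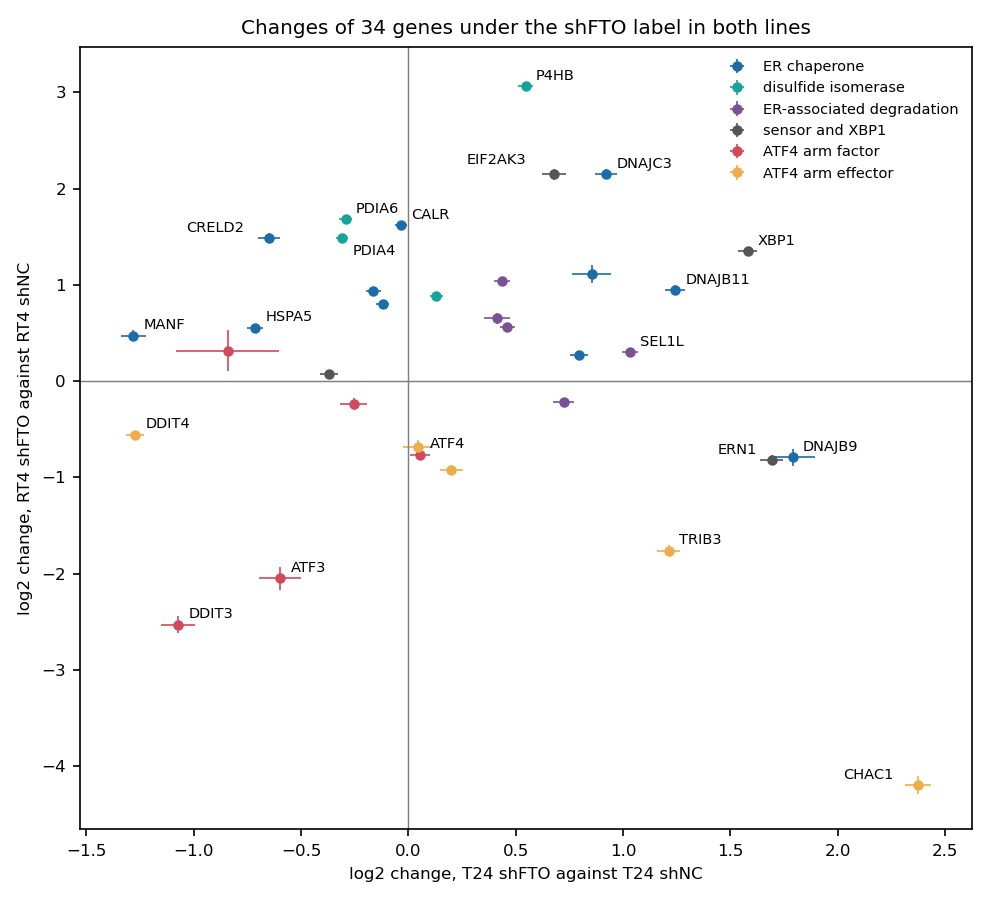
Log2 change under the shFTO label in T24 (horizontal axis) against RT4 (vertical axis) for the 34 genes, coloured by role, with bars of 1 SE. Isomerases and most chaperones lie above the horizontal zero line, and the ATF4 arm lies below it except CEBPB, with CHAC1 at the lower right.

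The control libraries of the 2 lines differed in most of these genes. T24 shNC was higher than RT4 shNC for 23 and lower for 8, against a background of 80.1% of genes called, 40.3% higher and 39.7% lower. Groups did not overlap for 31 of the 34, where 81.7% of all genes did not, and 14 differed by at least 2-fold against 51.1% of all genes. All 4 isomerases and 10 of 11 chaperones were higher in T24 shNC. The extremes on the high side were ATF3 (log2 difference 1.98 ± 0.100), CRELD2 (1.74 ± 0.053) and P4HB (1.65 ± 0.037), and on the low side DNAJB9 (-2.40 ± 0.10), EDEM2 (-1.60 ± 0.047) and ERN1 (-1.36 ± 0.053). ATF4, DDIT3 and VLDLR were not called, with log2 differences of 0.09, 0.05 and 0.02, but ATF4 was called in a fit blocked on batch (0.09, adjusted p = 0.0369) and under RLE or upper-quartile scaling, the 1 CPM filter, DESeq2 and thinning (0.11 to 0.16). These shNC libraries also enter the contrasts within each line, so the comparisons share libraries. By group means, RT4 shNC was the lowest of the 4 groups for 20 genes, among them 14 of the 15 chaperones and isomerases. RT4 shFTO was the lowest for 9, all of them in the ATF4 arm. Some neighbours in that order overlapped: HSPA5 in RT4 shFTO overlapped HSPA5 in T24 shFTO, and CALR overlapped between both T24 groups.

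Set beside the promoter matches printed above, all 9 genes with an ERSE or ERSE-II rose in RT4 and all 9 were higher in T24 shNC than in RT4 shNC, with median log2 values of 0.93 and 1.02. In T24, 4 of the 9 rose, 4 fell and CALR was not called. Of the 24 other genes with a promoter window, which held no such exact match, 10 rose and 12 fell in RT4. In T24 13 of these rose and 9 fell, and 13 were higher and 8 lower in T24 shNC than in RT4 shNC. Of all tested genes, 38.6% rose and 40.0% fell in RT4, and 37.2% rose and 40.8% fell in T24. Between the controls 40.3% of them were higher and 39.7% lower in T24 shNC. The 24 differ in role: 9 of their 12 falls in RT4 were in the ATF4 arm, and 6 of the 7 chaperones and isomerases among them rose in RT4. Chaperones made up 5 of the 6 genes with ERSE and 2 of the 3 with ERSE-II, and 10 of all 11 chaperones rose in RT4. Element and role therefore cannot be told apart here. The 3 genes with ERSE-II, HYOU1, SDF2L1 and HERPUD1, rose in both lines. Of the 6 with ERSE, only XBP1 rose in T24. The 3 CARE genes did not move alike: in RT4 HERPUD1 rose while ATF3 and CHAC1 fell, and in T24 HERPUD1 and CHAC1 rose while ATF3 fell.

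The wider pathway was read from 5 lists of 113 further genes. As a yardstick for each list, 37.2% of the 23070 genes were called higher in T24 and 40.8% lower, around a median log2 change of -0.05. The RT4 yardstick was 38.6% higher and 40.0% lower, around a median of -0.004. Among 22 other ER folding genes, 13 rose and 6 fell in T24 (median log2 change 0.33), and 17 rose and 5 fell in RT4 (0.91). UGGT2, which re-glucosylates unfolded glycoproteins, had a mean of 15.95 ± 0.398 CPM in RT4 shNC and 92.7 ± 3.79 CPM in RT4 shFTO (SD, n = 3), and PDIA5, a further isomerase, had 10.7 ± 0.489 and 57.6 ± 1.77 CPM. ERO1B, an oxidase that recharges the isomerases, went the other way, from 17.6 ± 0.316 CPM to 2.09 ± 0.396 CPM in RT4. DNAJC10, a reductase of the degradation pathway, rose in T24 from 73.5 ± 2.83 to 244 ± 3.04 CPM and fell in RT4 from 243 ± 5.77 to 156 ± 2.36 CPM.

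Among 31 translocation and transport genes, 21 rose and 7 fell in T24 (median log2 change 0.30) and 27 rose and 4 fell in RT4 (0.72). KDELR3, a receptor that returns escaped ER proteins, rose in RT4 from 13.1 ± 0.698 to 131 ± 3.34 CPM, and SEC24D, a coat subunit of ER exit vesicles, from 27.7 ± 1.89 to 155 ± 3.32 CPM. SSR4, a subunit of the translocon-associated complex, fell in T24 from 177 ± 10.8 to 65.4 ± 4.04 CPM and rose in RT4 from 52.4 ± 1.55 to 139 ± 3.07 CPM. Among 15 other degradation genes, 9 rose and 5 fell in T24 (median 0.10) and 10 rose and 3 fell in RT4 (0.32). EDEM3, the third member of the EDEM family, rose in both lines, from 57.4 ± 3.50 to 194 ± 0.703 CPM in T24 and from 57.4 ± 4.52 to 99.9 ± 3.42 CPM in RT4.

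Of 20 other sensors and transducers, 19 were tested. In T24 5 rose and 12 fell (median -0.31), and in RT4 10 rose and 9 fell (0.11). CREB3L1, an ER-membrane factor known for collagen secretion, fell in T24 from 9.68 ± 0.179 to 2.33 ± 0.157 CPM and rose in RT4 from 3.45 ± 0.386 to 73.2 ± 2.14 CPM, beside the fibroblast markers given above. CREB3L3, a related factor known from the liver, had 3 counts over the 3 RT4 shNC libraries together and 2335 over those of RT4 shFTO, a depth-scaled ratio of 1710 with a 95% counting interval of 584 to 8297. That interval pools the libraries and leaves out the spread between them, so it is too narrow. CREB3L3 was also called higher in T24, with a log2 change of 4.25. NFYA, a subunit of the factor that binds the CCAAT box, rose in T24 from 22.2 ± 0.886 to 164 ± 4.38 CPM.

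The 25 other targets of ATF4 and CHOP were split in T24 and mostly lower in RT4, with 15 rising and 10 falling in T24 (median log2 change 0.67) and 7 rising and 16 falling in RT4 (-1.06). ASNS, which makes asparagine, was at 48.9, 48.6 and 48.2 CPM in T24 shNC and 233, 228 and 199 CPM in T24 shFTO, and at 329, 349 and 349 CPM in RT4 shNC and 24.5, 21.5 and 24.4 CPM in RT4 shFTO. MTHFD2, a mitochondrial folate enzyme, was at 193, 200.4 and 202 CPM in RT4 shNC and 0.107, 0.113 and 0.209 CPM in RT4 shFTO. GDF15, a stress cytokine, rose in T24 from 16.7 ± 1.33 to 247 ± 3.19 CPM and fell in RT4 from 22.3 ± 0.730 to 4.20 ± 0.971 CPM. The list was not uniform: SLC7A11, the cystine importer, fell in T24 (log2 change -2.05) and rose in RT4 (1.18), and STC2, a secreted glycoprotein, rose in RT4 from 25.4 ± 0.918 to 245 ± 4.08 CPM. NUPR1, a stress-induced chromatin protein, rose in both lines (log2 changes 2.99 and 2.71).

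**Figure D4:**
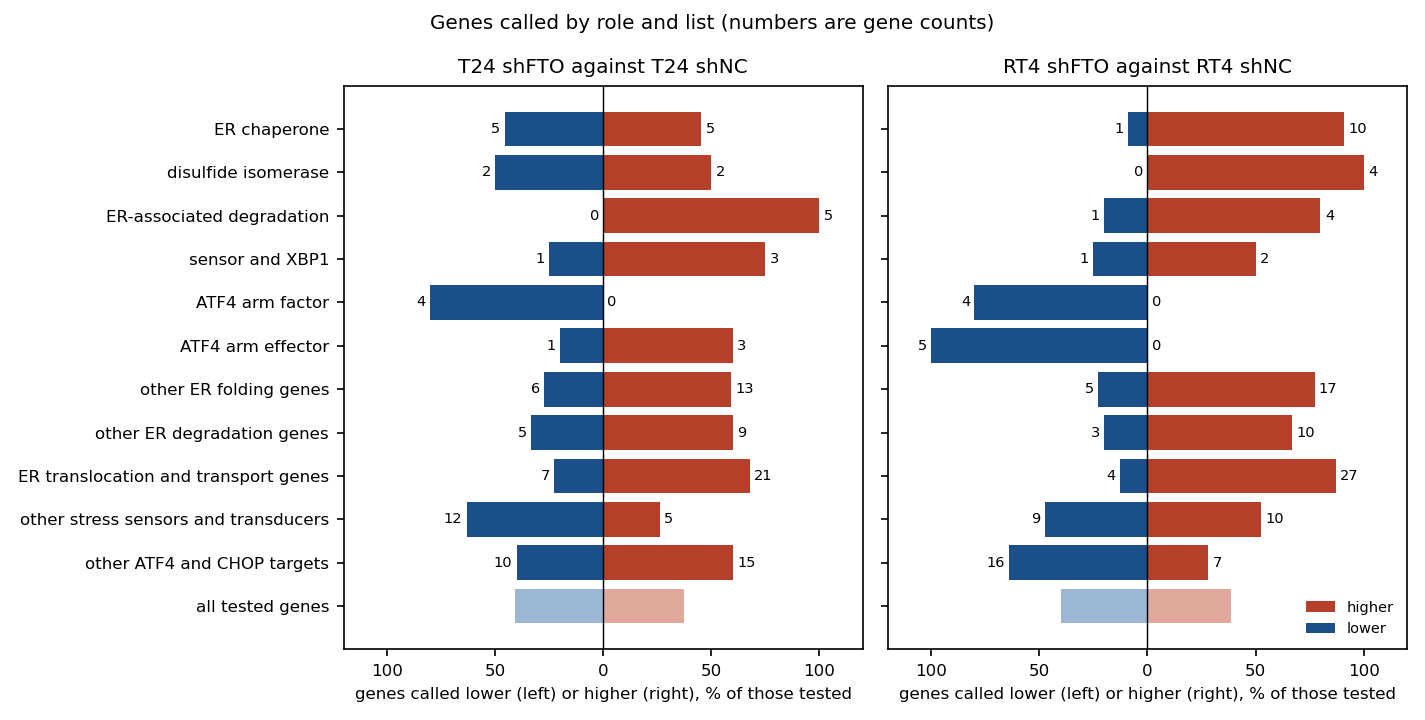
Percent of tested genes called higher (bars to one side) and lower (bars to the other) under the shFTO label in each line, for the 6 roles of the 34 genes, the 5 further lists and all tested genes. In RT4 the folding and transport bars lie mostly on the higher side and the ATF4 arm bars on the lower side.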

How the data were processed

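Per the labels' protocols, poly(A) mRNA was sequenced with paired-end reads of 150 bases. Per the submitters' processing notes, fastp 0.20.0, STAR 2.7.9a and featureCounts 2.0 were used, and the builds mm39, GRCh38 and hg38 are named without a role. Those notes give no strand setting. The deposited values are raw counts per gene in 12 libraries, and no row lacks a gene name.

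Counts were scaled with TMM, filtered with filterByExpr by group (23070 of 43557 genes), and fitted over the 4 labelled groups with edgeR 4.0.16 (robust quasi-likelihood, R 4.3.3, 8 residual degrees of freedom). Contrasts were shFTO against shNC within T24 and within RT4, the T24 change minus the RT4 change, and T24 shNC against RT4 shNC. P-values were Benjamini-Hochberg adjusted over all tested genes. Standard errors were derived as the size of the log2 change over the root of its F statistic. Within-batch changes were taken on log2 CPM (prior count 2). Levels are TMM-scaled CPM, and the number of libraries and their counts limit the precision.

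Batches 1 to 3 in the labels match the replicate numbers and so pair the libraries. Residuals of same-numbered libraries correlated at 0.101, -0.036 and 0.019 in T24 and at -0.098, -0.022 and -0.02 in RT4 over 10876 genes. With 1 library of each group in a batch, within-batch changes carry no test.

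Values in every library are given for FTO, HSPA5, ATF4, DDIT3, XBP1, the 6 greatest called rises and falls per line, and the 3 greatest each way for the line difference and the controls, with a mean of at least 1 CPM in a group. Of each further list, up to 2 called genes each way per line qualify. The 34 genes and all lists were chosen with earlier results of these data known. Alternatives were other scalings, filters, tools (DESeq2 1.42.0, limma 3.58.1), a batch block, each library left out, a 2-fold threshold and, chosen after seeing the data, library totals as the only scaling and thinning to the smallest library.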

Additional observations from a re-analysis of the deposited data

Results flagged for a closer look

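The change under the shFTO label differed between T24 and RT4, by the interaction term of the edgeR fit over all tested genes (adjusted p under 0.05), for 31 of the 34 genes. The same term was called for 75.0% of all tested genes. Differences of at least 2-fold were called for 18 of the 34 and for 55.3% of all tested genes. Differences are the log2 change in T24 minus that in RT4. Among the chaperones they were -1.27 for HSPA5, -0.92 for HSP90B1, -1.66 for CALR, -1.10 for CANX, 2.58 for DNAJB9, 0.29 for DNAJB11, -1.23 for DNAJC3, 0.53 for HYOU1, -2.13 for CRELD2 and -1.75 for MANF. Among the disulfide isomerases they were -0.75 for PDIA3, -1.80 for PDIA4, -1.97 for PDIA6 and -2.52 for P4HB. Among ER-associated degradation they were 0.73 for SEL1L, -0.24 for HERPUD1, -0.61 for SYVN1 and 0.94 for EDEM2. Among the sensors and XBP1 they were -0.45 for ATF6, 2.51 for ERN1, -1.47 for EIF2AK3 and 0.23 for XBP1. Among the ATF4 arm factors they were 0.82 for ATF4, 1.45 for ATF3, 1.46 for DDIT3 and -1.16 for CEBPB. Among the ATF4 arm effectors they were -0.72 for DDIT4, 2.97 for TRIB3, 6.57 for CHAC1, 1.12 for PPP1R15A and 0.73 for VLDLR. They cover the 13 genes with opposite calls in the 2 lines and 18 others. Both lines' controls and the libraries' marker levels differ as given above, and their part in these differences was not tested.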

How the results depend on the processing

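Counts of called genes among the 34 stayed within 1.5 times of those reported under each other scaling, filter and tool, the batch block, thinning and each library left out: 30 to 31 in T24, 31 to 33 in RT4, 29 to 33 for the difference and 30 to 32 for the controls. With a 2-fold threshold they were 10 in T24 (7 up, 3 down), 14 in RT4 (10 up, 4 down), 18 for the difference (7 up, 11 down) and 14 for the controls (11 up, 3 down). Leaving out 1 library gave 31 in T24 each time (18 up, 13 down), 32 to 33 in RT4 (20 to 21 up, 12 down), 30 to 32 for the difference (14 up, 16 to 18 down) and 31 for the controls (23 up, 8 down). For FTO it gave log2 changes of -0.48 to -0.42 in T24 and 0.55 to 0.61 in RT4. The replicate block gave -0.47 and 0.58 for FTO, 31, 33, 31 and 32 called genes, and changed no call of the 34 other than CEBPB in RT4 (0.37) and ATF4 between the controls (0.09). Upper-quartile scaling moved the median of all genes by -0.11 in each line, and library totals as the only scaling by -0.18 in T24 and -0.27 in RT4, and the no-filter fit moved that of the difference by 0.13. Under library totals alone 4 values that were called in either fit changed sign. They were PDIA3 (-0.0495, adjusted p = 0.146) and ATF4 (-0.13, adjusted p = 0.00819) in T24, and HYOU1 (-0.0012, adjusted p = 1) and ATF6 (-0.19, adjusted p = 0.000985) in RT4. Sign changes of values called in neither fit were not counted. CALR in T24 was then called (-0.21), as it was under upper-quartile scaling (-0.14). Without a low-count filter HSP90B1 in T24 (-0.08), HERPUD1 (-0.10) and CEBPB (-1.01) in the difference and HYOU1 between the controls (0.11) were not called. HERPUD1 in the difference also lost its call without RT4 shFTO replicate 3, RT4 shNC replicate 1, T24 shFTO replicate 2 or T24 shNC replicate 1 (-0.21 to -0.18), and under library totals alone (-0.15). SDF2L1 and EDEM1 in the difference were called under several settings (-0.37 to -0.30 and -0.15 to -0.14), as were ATF6 in RT4 (0.10 to 0.11) and ATF4 between the controls (0.09 to 0.16). PDIA3 in T24 lost its call under upper-quartile scaling (0.02). The cause of these shifts was not tested.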

Other observations

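FGF21, an ATF4-driven hormone known from the liver, was at 2.23, 2.59 and 1.77 CPM in T24 shFTO and at 0.0569, 0 and 0.0856 CPM in T24 shNC, and had no count in RT4 shFTO. DERL3, a degradation component known from secretory cells, was at 0.911, 1.04 and 1.05 CPM in T24 shNC and 0.0782, 0 and 0.128 CPM in T24 shFTO, and at 0.161, 0.119 and 0.110 CPM in RT4 shNC and 1.42, 1.72 and 1.18 CPM in RT4 shFTO. ALDH1L2, a mitochondrial folate enzyme, fell in both lines, with log2 changes of -3.61 in T24 and -1.59 in RT4. EIF2AK2 (PKR), the kinase that senses double-stranded RNA, was at 109, 105 and 104 CPM in T24 shNC and 32.9, 33.9 and 32.1 CPM in T24 shFTO, a log2 change of -1.69 ± 0.039. SEC62 and SERP1, which act at the translocon, rose in T24 by 1.61 and 1.39 on the log2 scale and in RT4 by 0.47 and 0.24. CREBRF, a regulator of the response, fell in RT4 from 42.01 ± 1.11 to 13.97 ± 0.874 CPM (SD, n = 3).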
